A study of Rattus norvegicus with 9 samples.

Results

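Interferon-induced genes were examined in rat livers across 3 groups: 9 genes (Ifit1, Ifit2, Ifit3, Ifi47, Mx1, Mx2, Irf7, Isg15 and Gbp2) of 40154 gene rows per library. The 9 genes were chosen by name as type I and type II interferon response genes, with earlier results of these same 3 group comparisons known, the low HepLPC values of Ifit1 among them. Their values are therefore given as a description. Calls from the fit over all genes are counted only beside the share of all genes called, and no p is given for the 9. Whole-liver RNA from Sprague-Dawley rats, labelled wild type and 5 months old, was sequenced in 3 libraries for each group. The normal group had no carbon tetrachloride (CCl4), a liver toxin, and no injection of any kind. Cirrhotic rats that received an injection of phosphate-buffered saline form the PBS group. Cirrhotic rats that received an injection of rat HepLPCs, progenitor-like cells made from hepatocytes, form the HepLPC group. The HepLPC and PBS groups thus shared the cirrhosis and an injection, and the normal group had neither, so injury and injection cannot be told apart in a comparison with normal. RNA of the injected rat cells and RNA of the host liver cannot be told apart either. The labels number the libraries of a group 1 to 3 without stating that each is a separate animal, so the spread between them may be technical.

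Interferons are cytokines that cells release on sensing viral nucleic acid or other danger signals. Type I interferons (alpha and beta) signal through the receptor Ifnar to a transcription factor complex that holds Irf9 and binds a DNA element called ISRE. Type II interferon (gamma), made mainly by T and NK cells, signals through the receptor Ifngr and acts on genes with an element called GAS. In the liver, hepatocytes, Kupffer cells (the resident macrophages) and endothelial cells all respond to both kinds. The 9 genes cover the main kinds of product: RNA-binding tetratricopeptide proteins (Ifit1, Ifit2, Ifit3), dynamin-like antiviral GTPases (Mx1, Mx2), the transcription factor Irf7 that amplifies type I interferon production, the ubiquitin-like modifier Isg15, and 2 GTPases typical of the interferon gamma response (Ifi47, an immunity-related GTPase, and Gbp2, a guanylate-binding protein).

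Of the 5 genes with a promoter at hand, the 4 whose promoter held a match to ISRE or GAS are shown. Gbp2 and Ifi47 were higher in all PBS than in all normal livers, and Irf7 and Ifit3 varied together from library to library. Mx1 did both (r of 0.89 with Ifit3), but its promoter held no match and is not shown. Each sequence is the 120 bases just before the annotated start of the gene, 5′ to 3′ on the gene's strand, from RefSeq on the rat assembly GRCr8. Capitals mark matches to ISRE, searched as GAAANNGAAA and, on the other strand, TTTCNNTTTC, or to GAS, searched as TTCNNNGAA, which reads the same on both strands. No ISRE match overlapped a GAS match in the promoters shown.
Gbp2, chr2:234005607-234005726, plus strand: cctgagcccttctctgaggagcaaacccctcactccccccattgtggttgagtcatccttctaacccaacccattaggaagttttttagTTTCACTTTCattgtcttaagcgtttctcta
Ifi47, chr10:33798624-33798743, plus strand: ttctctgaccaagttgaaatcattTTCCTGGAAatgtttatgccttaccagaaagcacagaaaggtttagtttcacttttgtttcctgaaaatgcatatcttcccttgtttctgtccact
Ifit3, chr1:241527206-241527325, plus strand: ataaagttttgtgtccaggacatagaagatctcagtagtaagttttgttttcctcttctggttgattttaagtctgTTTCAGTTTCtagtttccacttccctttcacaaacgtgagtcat
Irf7, chr1:205800024-205800143, minus strand: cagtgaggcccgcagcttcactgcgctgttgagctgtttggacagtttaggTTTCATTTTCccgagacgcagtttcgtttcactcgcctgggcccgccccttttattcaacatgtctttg

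Of the 9 genes, 5 had a promoter in the RefSeq table (these 4 and Mx1). In the 250 bases before the start, 3 of the 5 held an ISRE match: Gbp2 at bases -31 to -22, Ifit3 at -44 to -35 and Irf7 at -69 to -60, counted back from the start. The same letters were in 1140 of all 33469 promoters of the table (3.41%). They were in 21 of 47 promoters (44.7%) of other genes known as type I interferon-induced and in 14 of 23 (60.9%) of other type II genes. GAS letters were found in 1 of the 5, Ifi47, at -212 to -204 (TTCAGAGAA) and at -96 to -88 (TTCCTGGAA), against 2566 of all promoters (7.67%), 8 of 47 type I genes (17.0%) and 6 of 23 type II genes (26.1%). Mx1 held neither. A match describes letters in a window and does not show binding. Ifit1, Ifit2, Mx2 and Isg15 are named only.

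Expression is given as RPKM as deposited, reads scaled by gene length and by library size, so levels can be compared between genes. Libraries held 17.4 to 21.8 M reads, worked out from the RPKM values. Fold changes are differences between group means of log2(RPKM + 1), with a standard error (SE) from 1 limma model over all 9 libraries. This scale understates changes of low genes. A gene was counted as called at an adjusted p under 0.05 over 11124 genes, those that reached 1 RPKM in 3 libraries or more, and all 9 interferon genes were among these 11124. PBS replicate 1 and HepLPC replicate 2 stood apart: longer genes deviated downwards from the group mean in both (Spearman correlation with gene length across genes -0.564 and -0.528, against -0.157 to 0.423 in the other 7). Values without these 2 libraries are given for part of the results below. Hepatocyte markers were abundant in every library, with albumin (Alb) at 47139 to 68724 RPKM.

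Ifit1 was present in all normal and PBS livers and nearly absent from all HepLPC livers. Ifit1 binds RNA that lacks the cap methylation of host transcripts. It was at 7.99, 2.07 and 1.65 RPKM in the 3 normal livers, at 4.21, 5.68 and 5.19 RPKM in the PBS livers, and at 0.0751, 0.0250 and 0 RPKM in the HepLPC livers. All 3 HepLPC values lay below every other library, and among the normal livers replicate 1 stood far above the others. The HepLPC values rest on 3, 1 and 0 reads, against 329, 93 and 73 reads in normal and 155, 242 and 212 reads in PBS livers. The reads thus came to 4 in HepLPC and 609 in PBS livers, a ratio of 147 per unit of depth (95% interval 57.0 to 540). Against the 495 reads of the normal livers the ratio was 110 (42.6 to 405). Both intervals cover counting error only and leave out the spread between livers. In replicate 3 of HepLPC, 0 reads allow a level of up to 0.0834 RPKM, the value of 3 reads there. The reads themselves were not used here, so neither the gene model behind the Ifit1 row nor the sequence of the gene in each liver could be checked.

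The group means of Ifit1 were 3.90 ± 3.55 RPKM in normal, 5.03 ± 0.750 RPKM in PBS livers and 0.0334 ± 0.0383 RPKM in the HepLPC group (SD, n = 3 here and for every mean below). On the log2(RPKM + 1) scale the difference was -2.54 (SE 0.38) for HepLPC against PBS and -2.02 (SE 0.38) for HepLPC against normal. It was 0.52 (SE 0.38) for PBS against normal. Normal replicate 1 lowered the last value: without it, PBS against normal gave 1.07. The difference of HepLPC against normal shrank to -1.46 without that library. A smaller pseudocount made the differences larger, with -5.29 and -4.59 for the HepLPC comparisons at 0.1 RPKM in place of 1.

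**Figure D1:**
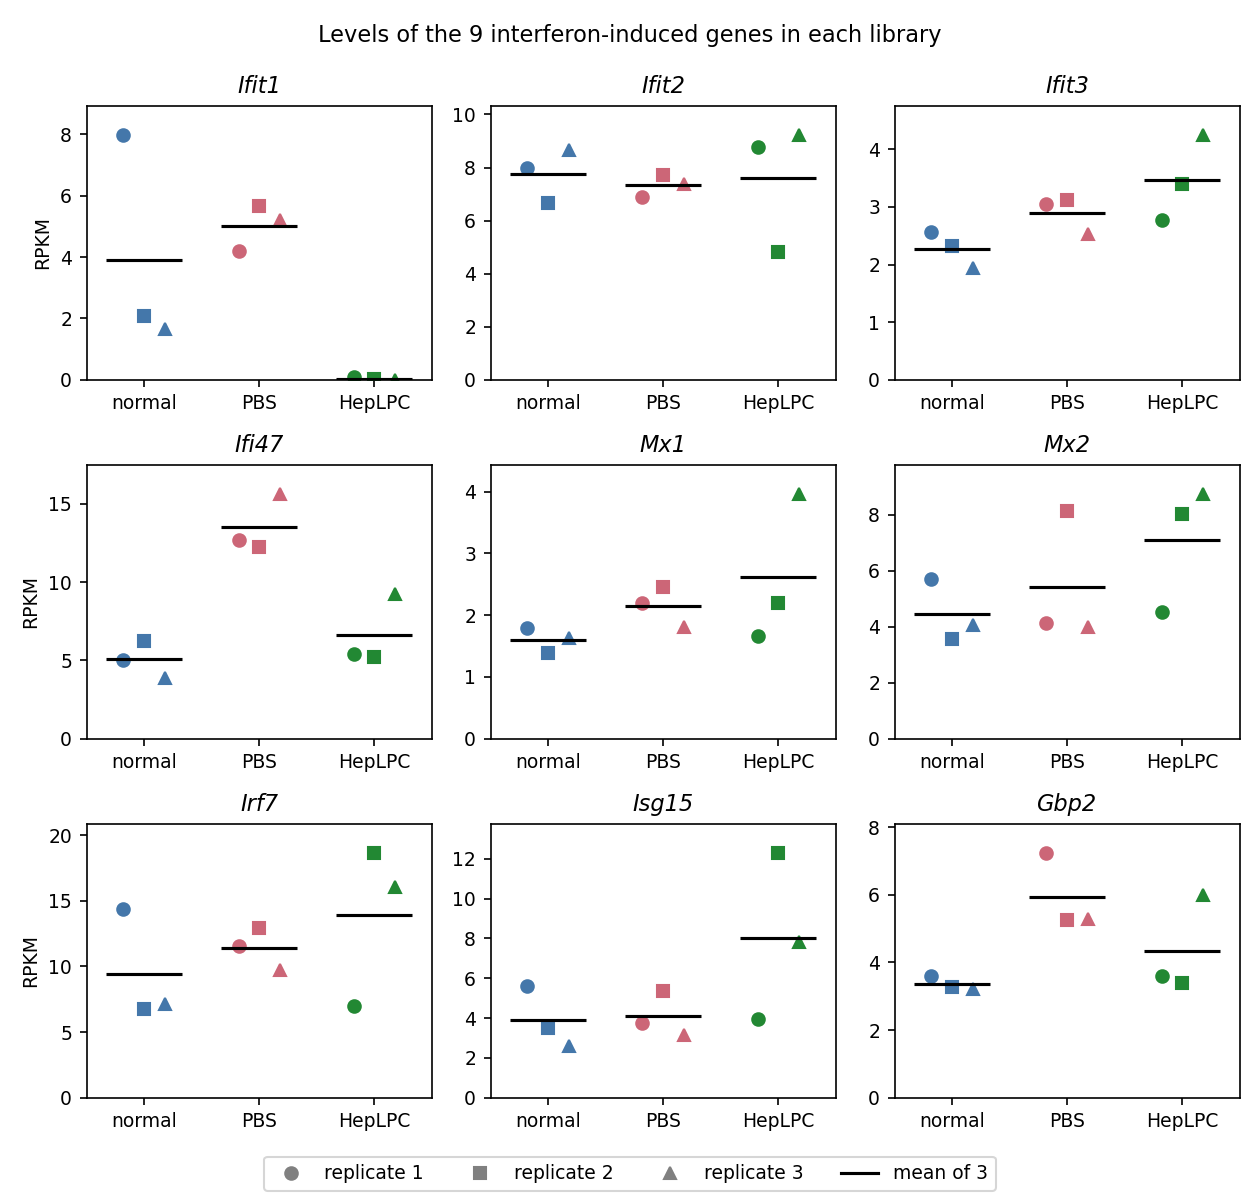
RPKM (vertical axis, from 0) of the 9 interferon-induced genes in each library, by group (horizontal axis: normal, PBS, HepLPC). Circles, squares and triangles are replicates 1, 2 and 3 and black lines are means of 3 libraries. Ifit1 is near 0 in the 3 HepLPC livers, where no other of the 9 genes lies below 1 RPKM.

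The other members of the Ifit family did not share this pattern. Ifit2, which like Ifit1 belongs to complexes of tetratricopeptide proteins on RNA, was at 7.99, 6.66 and 8.66 RPKM in normal, at 6.89, 7.73 and 7.38 RPKM in PBS and at 8.79, 4.82 and 9.23 RPKM in HepLPC livers. The 3 groups overlapped, and both the lowest and the highest library were HepLPC livers. The group means were 7.77 ± 1.02, 7.33 ± 0.423 and 7.61 ± 2.43 RPKM. The differences were -0.07 for PBS against normal, 0.00 for HepLPC against PBS and -0.06 for HepLPC against normal (SE 0.21 each), and their signs changed under some other processing.

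Ifit3, a partner that stabilises Ifit1, was at 2.56, 2.32 and 1.94 RPKM in normal, at 3.05, 3.11 and 2.53 RPKM in PBS and at 2.77, 3.39 and 4.25 RPKM in HepLPC livers. Every HepLPC liver was above every normal liver, while PBS livers overlapped both groups. The means were 2.27 ± 0.310, 2.90 ± 0.320 and 3.47 ± 0.746 RPKM, and neighbouring groups overlapped. The difference was 0.44 (SE 0.15) for HepLPC against normal and 0.25 for PBS against normal. HepLPC against PBS gave 0.19.

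The Ifit genes stand next to each other in the rat genome, and the genes around Ifit1 were measured in the same libraries. In the order of RefSeq's GRCr8 table the protein-coding genes run Ch25h, Lipa, Ifit2, Ifit3, Ifit1bl, Ifit1, Slc16a12, Pank1. The neighbour beyond Ifit1, Slc16a12 (a creatine transporter), was at 11.9 ± 0.608, 14.5 ± 2.10 and 14.0 ± 1.40 RPKM in normal, PBS and HepLPC livers. Lipa, the lysosomal acid lipase, was at 70.3 ± 13.6, 86.1 ± 15.3 and 76.8 ± 18.7 RPKM. Pank1, a kinase of coenzyme A synthesis, was at 15.0 ± 0.839, 12.5 ± 1.44 and 13.9 ± 1.23 RPKM. None of these 3 was near 0 in the HepLPC group.
Ifit1bl, a close relative of Ifit1, was low everywhere, at 0.161 ± 0.0615, 0.304 ± 0.159 and 0.157 ± 0.0305 RPKM. The sources used here do not give how reads shared by Ifit relatives were assigned, so the split between Ifit1 and Ifit1bl is uncertain.

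The pattern of Ifit1 was compared with all 40154 rows. Of 9378 rows at 1 RPKM or more in all 6 normal and PBS libraries, 1 was below 0.1 RPKM in all 3 HepLPC libraries, and it was Ifit1. These limits were set after the Ifit1 values had been seen. The mirror pattern for normal livers was found for 1 of 9235 rows, the aldehyde dehydrogenase Aldh3a1, and for PBS livers for 0 of 9013 rows. The highest HepLPC value of Ifit1 was 0.0457 of its lowest value elsewhere. The next gene by that ratio, LOC102549587, was at 0.444, followed by LOC103690393 at 0.698 and Bmp6, a growth factor that controls hepcidin, at 0.720. In the HepLPC against PBS fit, Ifit1 had the 13th lowest difference of the 11124 genes, and in HepLPC against normal the 5th lowest.

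**Figure D2:**
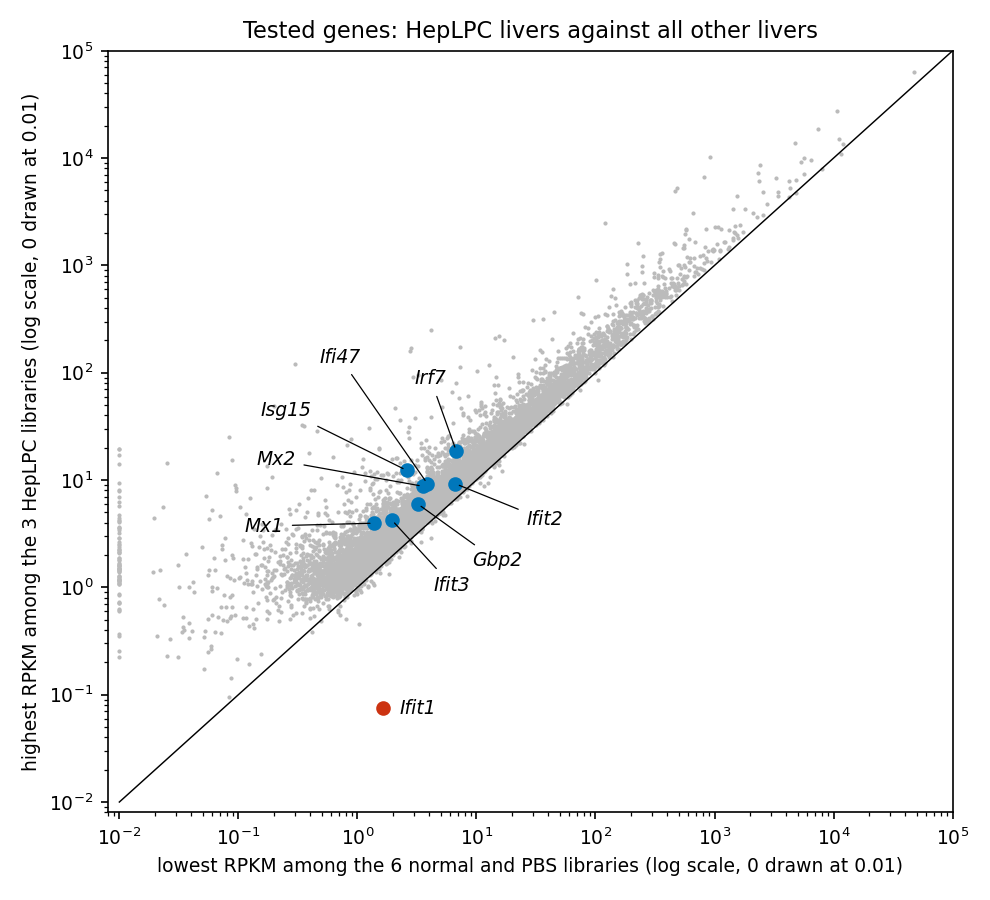
Each grey point is 1 of 11124 tested genes, with its lowest RPKM among the 6 normal and PBS libraries (horizontal log axis) and its highest RPKM among the 3 HepLPC libraries (vertical log axis). Values of 0 are drawn at 0.01 and the line marks equal values. Ifit1 (red) lies far below the line at 1.65 and 0.0751 RPKM, and the other 8 interferon genes (blue) lie above it. The highest of 3 values is set against the lowest of 6, so a place above the line does not show that groups were alike. Ifi47 lies above it although its highest HepLPC value (9.23 RPKM) was below its lowest PBS value (12.3 RPKM).

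Ifi47 and Gbp2 were higher in the PBS livers than in the normal livers. Ifi47, one of the GTPases that attack vacuoles holding pathogens, was at 5.06, 6.24 and 3.88 RPKM in normal, at 12.7, 12.3 and 15.6 RPKM in PBS and at 5.44, 5.24 and 9.23 RPKM in HepLPC livers. The 3 PBS livers were above all other libraries, and the normal and HepLPC livers overlapped. The means were 5.06 ± 1.18, 13.5 ± 1.83 and 6.64 ± 2.25 RPKM. The difference was 1.27 (SE 0.22) for PBS against normal, -0.96 (SE 0.22) for HepLPC against PBS and 0.31 (SE 0.22) for HepLPC against normal.

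Gbp2, which coats such vacuoles and helps to activate inflammasomes, was at 3.60, 3.28 and 3.21 RPKM in normal, at 7.24, 5.26 and 5.28 RPKM in PBS and at 3.59, 3.39 and 6.0 RPKM in HepLPC livers. All PBS livers were above all normal livers, while HepLPC replicate 3 lay within the PBS range and the other HepLPC livers beside the normal ones. The means were 3.36 ± 0.210, 5.93 ± 1.13 and 4.32 ± 1.45 RPKM. The difference was 0.66 (SE 0.19) for PBS against normal, while HepLPC against PBS gave -0.40 (SE 0.19). Ifi47 and Gbp2 correlated across the 9 libraries with a Pearson r of 0.86 (Spearman 0.77) on log2(RPKM + 1), and with an r of 0.60 once the group means were taken out. The 9 points share groups and depth, so this is a description. Gbp2 also followed Ifit3, with an r of 0.56 (Spearman 0.55) and of 0.71 with the group means taken out.

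Irf7, Isg15, Mx1 and Mx2 spread widest among the HepLPC livers or the PBS livers. In any comparison 0 of the 4 were called. Of all tested genes, 11.3% were called for PBS against normal, 3.07% for HepLPC against PBS and 0.0809% for HepLPC against normal. Nothing is read from the count of 0. Irf7 was at 14.4, 6.77 and 7.14 RPKM in normal, at 11.5, 13.0 and 9.70 RPKM in PBS and at 6.98, 18.7 and 16.0 RPKM in HepLPC livers. HepLPC replicates 2 and 3 were the highest libraries and HepLPC replicate 1 was among the lowest. The means were 9.43 ± 4.29, 11.4 ± 1.63 and 13.9 ± 6.12 RPKM, and Irf7 had the highest mean of the 9 genes in the normal and HepLPC groups. Its differences were 0.32, 0.17 and 0.49 for PBS against normal, HepLPC against PBS and HepLPC against normal (SE 0.36 each). For HepLPC against PBS, 19 alternative fits (other processing or libraries left out) gave -0.08 to 0.57. The lowest value came without HepLPC replicate 2.

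Isg15, which is attached to other proteins during the response, was at 5.60, 3.52 and 2.60 RPKM in normal, at 3.74, 5.37 and 3.14 RPKM in PBS and at 3.97, 12.3 and 7.84 RPKM in HepLPC livers. Again HepLPC replicates 2 and 3 were above all other libraries, while HepLPC replicate 1 lay inside the range of the other groups. The means were 3.91 ± 1.54, 4.08 ± 1.16 and 8.04 ± 4.17 RPKM. The difference was 0.74 (SE 0.35) for HepLPC against PBS, 0.81 (SE 0.35) for HepLPC against normal and 0.07 (SE 0.35) for PBS against normal. Without PBS replicate 1 and HepLPC replicate 2, HepLPC against PBS gave 0.37, the lowest value of the 19 alternatives.

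The Mx proteins block virus particles and their polymerases. Mx1 was at 1.79, 1.38 and 1.64 RPKM in normal, at 2.20, 2.45 and 1.81 RPKM in PBS and at 1.67, 2.20 and 3.96 RPKM in HepLPC livers. The PBS livers were all just above the normal ones, and the HepLPC livers overlapped both. Mx2 was at 5.70, 3.57 and 4.07 RPKM in normal, at 4.12, 8.14 and 3.97 RPKM in PBS and at 4.52, 8.01 and 8.74 RPKM in HepLPC livers. All 3 groups overlapped. The means of Mx1 were 1.60 ± 0.207, 2.15 ± 0.326 and 2.61 ± 1.20 RPKM and those of Mx2 4.45 ± 1.11, 5.41 ± 2.37 and 7.09 ± 2.26 RPKM. For HepLPC against normal the differences were 0.42 (SE 0.21) and 0.55 (SE 0.29).

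Counted over the group, 1 of the 9 genes was called for PBS against normal (Ifi47), where 11.3% of all tested genes were called and 10.4% were called higher. For HepLPC against PBS 1 was called (Ifit1), beside 3.07% of all genes called and 2.93% called lower. For HepLPC against normal 0 were called, beside 0.0809% of all genes. In that comparison Ifit1 was called once normal replicate 1 was left out, or with a pseudocount of 0.1 RPKM. The Ifit1 call against PBS was lost without PBS replicate 3 (difference -2.51) and without PBS replicate 1 and HepLPC replicate 2 together (-2.63). The Ifi47 difference of HepLPC against PBS was called without HepLPC replicate 3 (-1.19), and the Gbp2 difference of PBS against normal without HepLPC replicate 2 or replicate 3, with the same difference of 0.66. The Ifit1 difference of PBS against normal was called without normal replicate 1.
Groups did not overlap for 3 of the 9 genes in PBS against normal (Ifi47, Mx1, Gbp2), beside 37.7% of all genes. They did not overlap for 2 in HepLPC against PBS (Ifit1, Ifi47; 18.4% of all genes) and for 2 in HepLPC against normal (Ifit1, Ifit3; 15.8%). As the choice of genes used these comparisons, nothing is read from these counts. The median difference of the 9 genes was 0.27, 0.15 and 0.42 in the 3 comparisons, beside 0.18, -0.14 and 0.05 for all tested genes. The comparisons share groups, so these values are not independent of each other.

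Ifit1 was then set against the mean log2(RPKM + 1) of the other 8 genes in each library. In the normal livers it was 0.58 above that mean in replicate 1 and below it in replicates 2 and 3 (-0.66 and -0.82). In the PBS livers it lay close to it (-0.34, -0.14 and 0.02). In the HepLPC livers it lay at -2.31, -2.76 and -3.09. Without Ifit1 the differences of the other 8 genes for HepLPC against PBS ran from -0.96 (Ifi47) to 0.74 (Isg15), with a median of 0.16. For HepLPC against normal they ran from -0.06 (Ifit2) to 0.81 (Isg15), with a median of 0.43. For HepLPC against normal, 7 of the other 8 genes had a positive difference where that of Ifit1 was negative. The sign of the exception, Ifit2, changed under 3 of 19 alternatives, and those of the 7 genes and of Ifit1 changed under none of the 19.

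Across the 9 libraries, Ifit1 correlated with the mean of the other 8 genes with a Pearson r of -0.12 (Spearman -0.13). With single genes the r ran from -0.44 (Isg15) to 0.40 (Ifi47). With the group means taken out, the r with the mean of the other 8 was 0.44. Ifit3, Mx1, Mx2, Irf7 and Isg15, picked out after their values had been seen, correlated with each other in all 10 pairs, with an r of 0.58 to 0.89. Ifit1 against the same 5 genes gave an r of -0.44 to -0.05. With group means taken out, the r was 0.43 to 0.93 within the 5 and 0.12 to 0.56 for Ifit1 against them. Without PBS replicate 1 and HepLPC replicate 2, it was 0.72 to 0.92 and -0.38 to 0.24 over 7 libraries. All libraries contribute to each of these values and depth is shared between genes, so they describe these libraries only.

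Other genes of the response differed in how they ordered the libraries. HepLPC replicates 2 and 3 were the 2 highest libraries for 3 of the 9 genes (Irf7, Isg15 and Ifit3) and for 11 of the 99 tested genes of the wider pathway lists (11.1%), beside 1.73% of all tested genes. HepLPC replicate 2 was the lowest library for Ifit2 and for 28 of the 99 pathway genes (28.3%), beside 33.7% of all tested genes. This is the library that stood apart by gene length. Among the lowest there was Ifih1, a sensor of double-stranded RNA, at 3.43 RPKM, against 9.10 and 9.83 RPKM in the other HepLPC livers. Usp18, which removes Isg15 from proteins and dampens Ifnar signalling, was at 7.09, 3.86 and 3.86 RPKM in normal, at 5.36, 8.37 and 4.96 RPKM in PBS and at 5.59, 13.1 and 10.8 RPKM in HepLPC livers. Oas1a, which makes the second messenger that activates RNase L, was at 13.0, 4.65 and 6.55 RPKM, at 6.44, 7.57 and 3.42 RPKM and at 5.42, 20.04 and 11.8 RPKM. Both were highest in HepLPC replicate 2, in which Ifit1 had 1 read. These 3 genes, and Rtp4 in the heat map, were chosen after their values had been seen. In normal replicate 1, where Ifit1 was highest, Irf7 and Isg15 took rank 3 of the 9 libraries. Ifit2 and Mx2 took rank 4 there, Gbp2 rank 5, Ifit3 and Mx1 rank 6 and Ifi47 rank 8.

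**Figure D3:**
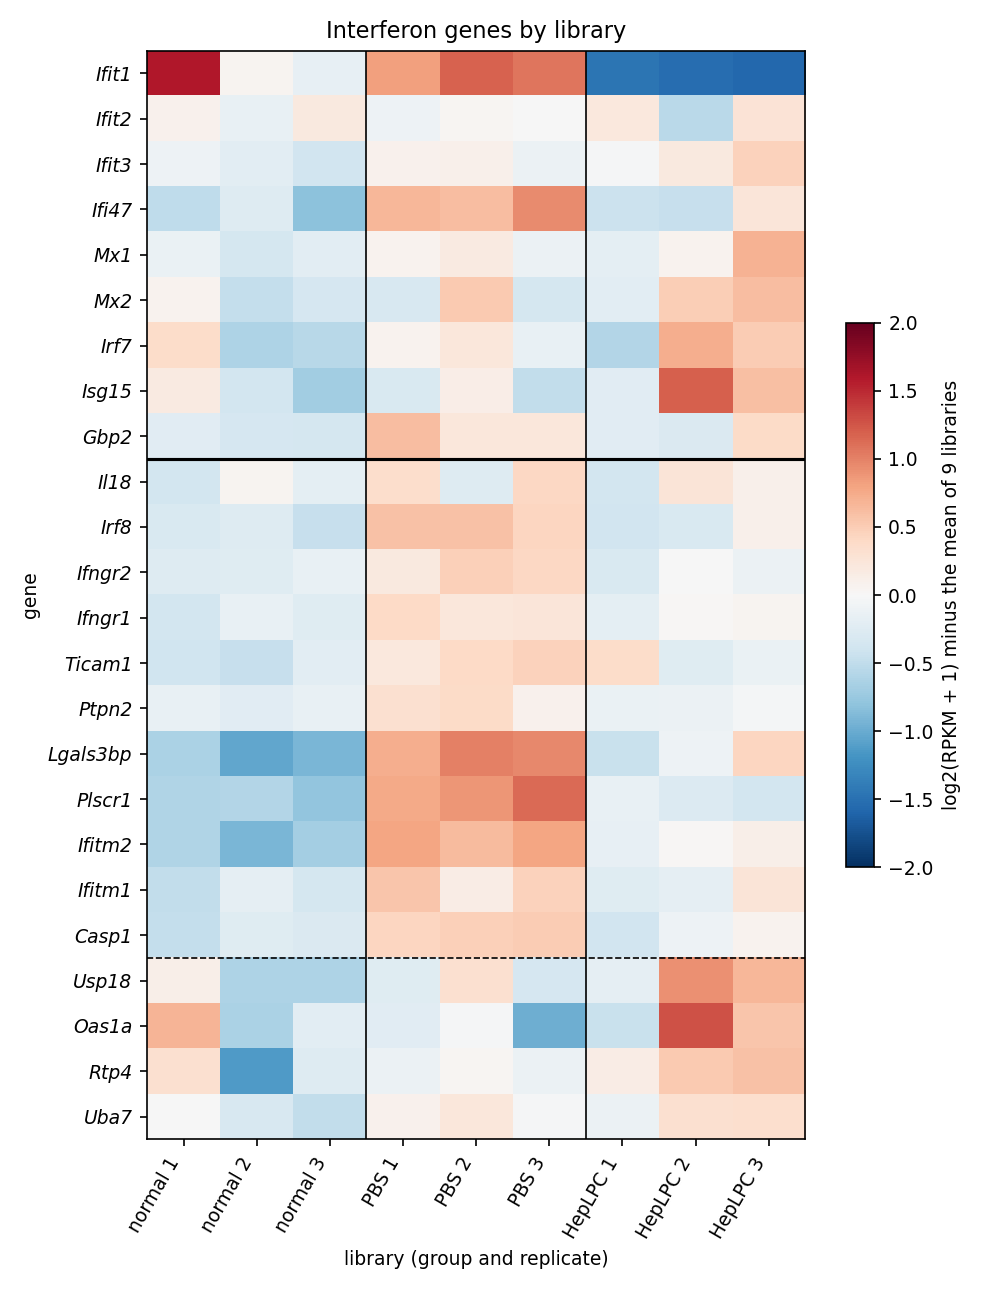
Colour gives log2(RPKM + 1) minus the gene's mean over the 9 libraries (columns, by group and replicate). Rows are the 9 interferon-induced genes (above the solid line), genes of the wider pathway named by a fixed rule (middle) and 4 genes added after seeing values or by likeness (below the dashed line). Ifit1 is lowest in the 3 HepLPC livers, while Irf7, Isg15, Usp18 and Uba7 are highest in HepLPC replicates 2 and 3.

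The tested genes with the highest Pearson correlation with Ifit1 over the 9 libraries were Bud13 (r 0.92, Spearman 0.90), a splicing factor, Pdgfc (0.92 and 0.92), a growth factor, and Nr1i3 (0.91 and 0.85), the xenobiotic receptor CAR. Pex10 (0.90 and 0.90), a peroxisome protein, and Klf11 (0.89 and 0.78), a transcription factor, followed. With group means taken out, the r with Ifit1 was 0.42 for Bud13, 0.81 for Pdgfc, 0.50 for Nr1i3, 0.87 for Pex10 and 0.30 for Klf11. For the other 8 interferon genes it ran from 0.03 (Gbp2) to 0.56 (Irf7). The lowest HepLPC mean of the 5 was 0.947 RPKM (Klf11). Bud13 was at 3.51 ± 0.109, 4.23 ± 0.331 and 2.45 ± 0.176 RPKM in normal, PBS and HepLPC livers, and Nr1i3 at 7.29 ± 1.66, 9.18 ± 1.97 and 3.78 ± 0.822 RPKM. Nearest to the mean of the other 8 interferon genes were Uba7 (r 0.95, Spearman 0.97), the enzyme that activates Isg15 for conjugation, Nr2f6 (0.92 and 0.97), a nuclear receptor, and Htra1 (0.92 and 0.93), a protease. LOC685067 (0.91 and 0.93) and Oasl2 (0.91 and 0.95), an OAS-like protein, came next. Uba7 and Oasl2 belong to the list of type I interferon-induced genes, and none of the 5 genes nearest to Ifit1 belongs to any of the interferon lists. The lists hold 99 of the 11124 tested genes, and the 9 genes were left out of the search. Listed genes would thus be rare near most genes, and nothing is read from their absence near Ifit1.

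The wider pathway was read from 6 lists holding 134 other genes found in the files, of which 99 were tested. For PBS against normal 11 of the 99 rose and 0 fell, which is close to the 11.3% of all tested genes. For HepLPC against PBS 0 rose and 3 fell, beside 3.07% of all genes, and for HepLPC against normal 0 changed. The median difference of the 99 genes was 0.18, -0.12 and 0.08, beside 0.18, -0.14 and 0.05 for all genes. The count for PBS against normal depended on scaling. With the median of all genes brought to near 0 by a median-of-ratios scaling, 5 of the 99 were called, and 4 after quantile normalization. The count of all 11124 genes fell too, from 1262 to 820 and 714, so the dependence was not particular to the pathway. Median-of-ratios scaling shifted the median of all genes by -0.17 and 0.13 in the first 2 comparisons.

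Interferon ligands were at the edge of detection. Of 13 listed, only Il18 (6.12 ± 1.06, 8.13 ± 2.19 and 7.07 ± 1.69 RPKM in normal, PBS and HepLPC livers), an inducer of interferon gamma, passed the filter on low values, and it was not called in any comparison. Ifnb1 was listed at 0 in all 9 libraries. Ifng was listed at 0 except in HepLPC replicates 1 and 3 (0.204 and 0.113 RPKM).

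Among 14 tested receptor and JAK-STAT genes, 3 rose in PBS against normal livers. Irf8, a transcription factor of macrophages and dendritic cells, rose from 4.77 ± 0.409 to 9.55 ± 0.642 RPKM (0.87, SE 0.15, limma adjusted p = 0.00586). It fell to 5.42 ± 1.19 RPKM in HepLPC livers (-0.73 against PBS, limma adjusted p = 0.0326), a call lost in 13 of 19 alternatives, among them leaving out any single library but HepLPC replicate 3 (-0.64 to -0.78). The interferon gamma receptor chains Ifngr1 and Ifngr2 rose by 0.54 and 0.57 (limma adjusted p = 0.022 for each), calls lost in 9 and 7 of 19 alternatives. Among these were, for Ifngr1, each single normal or PBS library left out (0.48 to 0.59) and, for Ifngr2, each normal library and PBS replicate 2 or 3 (0.52 to 0.61). Irf9, a subunit of the complex that binds ISRE, stood at 7.72 ± 0.777, 7.47 ± 0.968 and 8.41 ± 2.54 RPKM in normal, PBS and HepLPC livers and was not called. With group means taken out, Irf9 followed the mean of the 8 genes with an r of 0.97.

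Of 11 nucleic acid sensors and adaptors 1 rose in PBS livers, Ticam1, the adaptor of Tlr3, from 0.770 ± 0.162 to 1.91 ± 0.260 RPKM (0.72, limma adjusted p = 0.0299). Of 9 brakes of signalling 1 rose, the phosphatase Ptpn2, from 2.55 ± 0.102 to 3.82 ± 0.508 RPKM (0.44, limma adjusted p = 0.0454). The Ticam1 call was lost in 9 of 19 alternatives, among them each normal library and PBS replicate 2 or 3 left out (0.66 to 0.79). The Ptpn2 call was lost in 13, among them each single library but HepLPC replicate 2 left out (0.38 to 0.53).

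Of 41 other type I interferon-induced genes, 5 rose in PBS against normal livers. Plscr1, a scramblase with antiviral activity, was at 1.14, 1.15 and 0.886 RPKM in normal, at 4.47, 5.00 and 6.15 RPKM in PBS and at 1.94, 1.68 and 1.52 RPKM in HepLPC livers. It rose by 1.59 (SE 0.14, limma adjusted p = 0.000281) and fell by 1.19 on the log2 scale in HepLPC against PBS livers (limma adjusted p = 0.00435). Its HepLPC and PBS values did not overlap, as for Ifit1, but its HepLPC livers lay above all normal livers. Ifitm2, a membrane protein that blocks virus entry, was at 8.92 ± 1.07, 26.4 ± 1.67 and 15.3 ± 1.59 RPKM. It rose by 1.47 (limma adjusted p = 0.000281) and fell by 0.75 in HepLPC against PBS livers (limma adjusted p = 0.018), the latter lost in 4 of 19 alternatives, among them without PBS replicate 3 (-0.73) and without HepLPC replicate 1 (-0.68). Lgals3bp, a secreted glycoprotein, rose from 7.80 ± 1.27 to 28.7 ± 3.06 RPKM (1.76, limma adjusted p = 0.00116). Ifitm1 rose by 0.73 (limma adjusted p = 0.0262), lost in 8 of 19 alternatives, among them each normal library and PBS replicate 1 or 3 left out (0.64 to 0.81). Parp9, named after its value was seen, rose by 0.51 (limma adjusted p = 0.0489). This call lay just under the limit of 0.05, and whether it held under the alternatives is not given here. Among 23 other type II genes 1 rose, the inflammasome protease Casp1, from 3.40 ± 0.363 to 6.73 ± 0.228 RPKM (0.81, limma adjusted p = 0.00658).

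**Figure D4:**
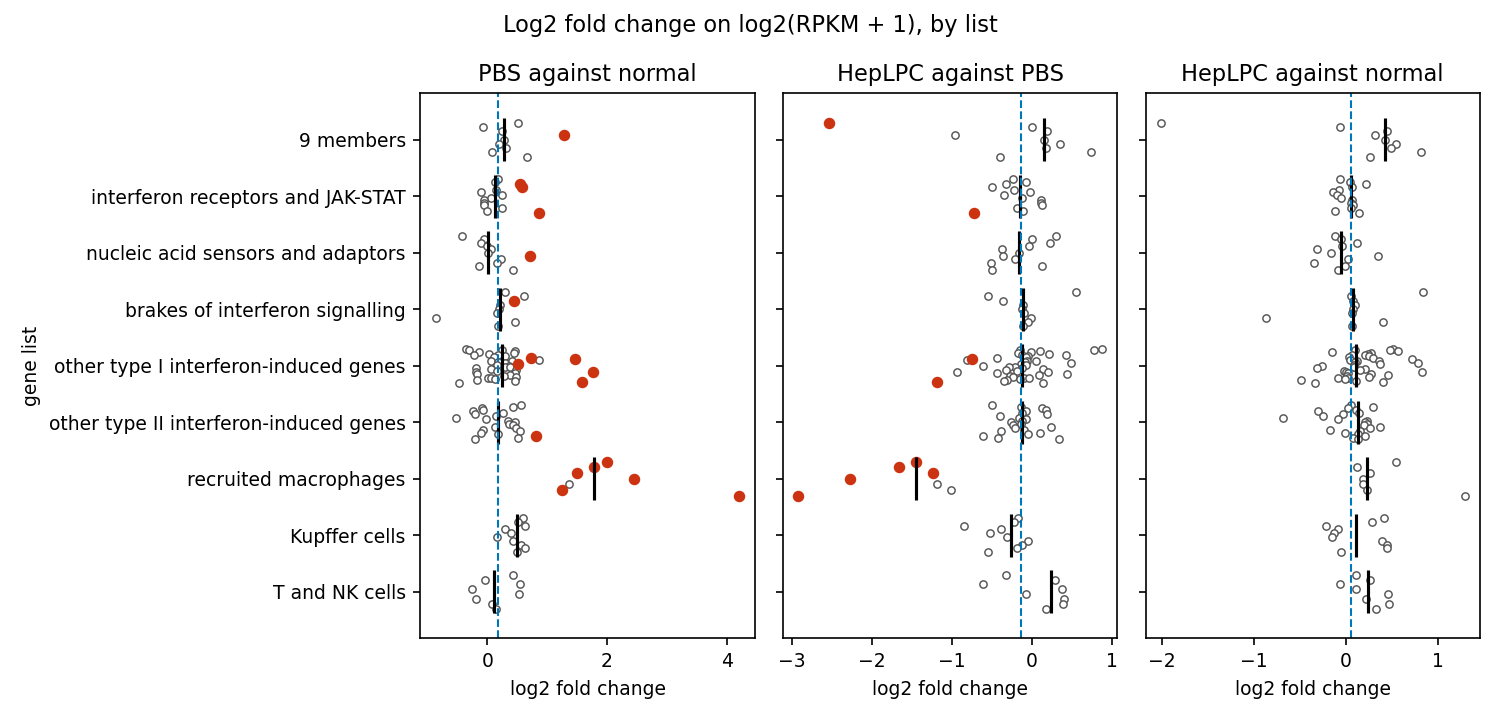
Log2 fold change on log2(RPKM + 1) (horizontal axis) of the 9 genes ("9 members"), of the tested genes of 5 pathway lists and of 3 marker lists, for the 3 comparisons (panels). Red points are genes at a limma adjusted p under 0.05, short black lines are list medians and the dashed blue line is the median of all tested genes. Ifit1 is the isolated red point near -2.54 in HepLPC against PBS.

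Cell type markers moved beside these values. Of 7 tested markers of recruited macrophages 6 rose in PBS against normal livers and 5 fell in HepLPC against PBS livers. Their summed level was 24.8 to 32.7 RPKM in normal, 130 to 299 RPKM in PBS and 34.1 to 41.2 RPKM in HepLPC livers, the same order as for Ifi47, Gbp2, Plscr1 and Ifitm2. All 6 tested cholangiocyte markers rose and fell likewise (7.75 to 10.001, 39.1 to 113 and 9.50 to 16.0 RPKM). In the values as deposited, the median differences of all tested genes (0.18, -0.14 and 0.05 in the 3 comparisons) give this order of groups too. There the order alone does not set these genes and markers apart. The all-gene medians depended on scaling, with -0.04, 0.02 and -0.004 after quantile normalization. List medians for PBS against normal and HepLPC against PBS were larger, at 1.79 and -1.45 for recruited macrophages and 1.71 and -1.50 for cholangiocytes. The part of cell composition in these results was not tested, and in whole tissue more cells of a type and more RNA per cell cannot be told apart. Of 10 Kupffer cell markers 0 were called, with sums of 251 to 346, 380 to 570 and 288 to 448 RPKM, and of 8 tested T and NK cell markers 0 (14.8 to 21.1, 21.5 to 23.9 and 17.4 to 29.1 RPKM). Of 3 tested markers of plasmacytoid dendritic cells, a main source of type I interferon, 1 rose in PBS livers, Tcf4. Of sinusoidal endothelial and hepatocyte markers, 8 each, 0 were called in any comparison. Of B and plasma cell markers 1 was tested, Jchain, the joining chain of secreted antibodies. It rose from 4.19 ± 1.67 to 17.4 ± 2.39 RPKM in PBS livers (1.87, limma adjusted p = 0.019) and was at 18.6 ± 10.4 RPKM in HepLPC livers, not called against either group. No marker of these lists was at 0 in all libraries of a group.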

How the data were processed

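Whole-liver RNA of 9 libraries (3 normal, 3 PBS, 3 HepLPC, grouped by sample title) was analysed. Per the labels' protocols, TRIzol RNA was treated with DNase I and TruSeq libraries were sequenced on Illumina HiSeq or NovaSeq instruments. The authors deposited RPKM values, per the file headers, in 40154 rows per library. The submitters' processing notes name HISAT2, StringTie and the build hg19 without a role. The rows carry rat symbols, so the build behind them is uncertain and no gene coordinates from it are given. Near-identical genes are uncertain. Whole reads were recovered from the RPKM steps for 20959 of 20959 genes above 0 in 3 or more libraries (tolerance 0.01 read). They served for depth and for the Ifit1 ratio. The test was limma 3.58.1 in R 4.3.3 (lmFit, eBayes with trend, 2-sided) on log2(RPKM + 1), 1 term per group, 6 residual degrees of freedom, Benjamini-Hochberg over 11124 genes, checked on simulated data. The genes and lists were chosen with earlier results of these data known. All 9 genes are named. From each list, up to 4 called genes with the largest change are named, or the 2 most abundant where none was called, and the 5 genes most correlated with Ifit1 and with the other 8. Of 139 listed pathway genes 4 matched no row and 1, a synonym of Mx2, was left out. The 19 alternatives were other pseudocounts, filters, scalings, models and omitted libraries.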

Additional observations from a re-analysis of the deposited data

How the results depend on the processing

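The differences of Ifit1 kept their sign under all 19 alternatives, between -5.29 and -2.38 for HepLPC against PBS, between -4.59 and -1.46 for HepLPC against normal and between 0.19 and 1.07 for PBS against normal. Ifi47 was called in PBS against normal under all 19 (1.06 to 1.42). Signs changed for Ifit2 in every comparison, for Ifit3, Mx2 and Isg15 in PBS against normal and for Mx1 and Irf7 in HepLPC against PBS. The count of called genes moved more, and the cause was not tested. For PBS against normal, 1262 of all genes were called; 820 with median-of-ratios scaling, 714 after quantile normalization, 787 with the replicate number as a block, 2953 without PBS replicate 1 and HepLPC replicate 2, and 419 (without PBS replicate 3) to 1797 with 1 library left out. For HepLPC against PBS, 341 were called; 213 after quantile normalization, 86 in a fit of the 2 groups alone, 198 with the block, and 39 (without PBS replicate 3) to 289 with 1 library left out. For HepLPC against normal, 9 were called; 0 without a filter, 5 with median-of-ratios scaling, 3 after quantile normalization, 1 with the block, 15 without those 2 libraries and 0 to 17 with 1 library left out. The scalings also changed the split of higher against lower calls, from 1157 against 105 to 616 against 204 and 492 against 222 for PBS against normal, and from 15 against 326 to 23 against 216 and 32 against 181 for HepLPC against PBS.

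Of the 9 interferon genes, 1 was called for PBS against normal; 2 in a fit of the 2 groups alone, and 1 to 2 with 1 library left out. For HepLPC against PBS 1 was called; 2 with a filter of 0.5 RPKM, 0 without PBS replicate 1 and HepLPC replicate 2, and 0 to 2 with 1 library left out. For HepLPC against normal 0 were called; 1 with a pseudocount of 0.1 RPKM and 0 to 1 with 1 library left out. Of the 99 other pathway genes, 11 were called for PBS against normal; 5 with median-of-ratios scaling, 4 after quantile normalization, 6 with the block, 18 without PBS replicate 1 and HepLPC replicate 2, and 5 to 14 with 1 library left out. For HepLPC against PBS 3 were called; 5 with a filter of 0.5 RPKM, 1 in a fit of the 2 groups alone, and 1 to 7 with 1 library left out. The replicate numbers were not shown to pair libraries: deviations of same-numbered libraries correlated between -0.412 and 0.310, and not every library correlated best with its own number. Depth limits Ifit1 in HepLPC livers, where it rests on 4 reads in all.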
